A study of Mus musculus with 6 samples.

Results

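The genes described here encode mitochondrial proteins that act when oxygen is scarce: the mitophagy receptors Bnip3, Bnip3l and Fundc1, the mitophagy kinase Pink1, and Fam162a, Ndufa4l2, Higd1a, Lonp1 and Cox4i2, other mitochondrial proteins linked to hypoxia. They were taken by gene symbol from a list of 9 names, and all 9 had an entry among the 22880 genes of the table. Of these, 8 passed the filter on low counts that 12014 genes passed in all, and Cox4i2 did not. The study asked how the transcriptome of murine colon adenocarcinoma cells changes when their response to hypoxia is blunted by knockdown of HIF-1α. Both groups were MC-38 cells that express GFP, carried the pLKO.1-puro vector and were not passaged in vivo, with a mock knockdown in the Mock group and a knockdown of HIF-1α in the HIF-1α-KD group. They were grown as orthotopic tumors in the cecum wall of C57BL/6J mice, whose own cells had normal HIF-1α, and were sorted as GFP+ CD45- CD31- cells, with 3 libraries in each group. Neither the labels nor the methods say whether a library came from 1 tumor, so the p-values measure the spread between these libraries only.

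HIF-1α is the oxygen-regulated subunit of a transcription factor that is stabilized under hypoxia and binds hypoxia response elements with the core letters ACGTG or GCGTG. In hypoxic cells it is known to lower mitochondrial oxygen use, partly by removing mitochondria through mitophagy and partly by exchanging subunits of the respiratory chain. BNIP3, BNIP3L (also called NIX) and FUNDC1 are proteins of the outer mitochondrial membrane that bind LC3-family proteins and so tether a mitochondrion to the forming autophagosome. PINK1 instead accumulates on depolarized mitochondria and recruits the ubiquitin ligase Parkin.

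The libraries held 19845852 to 30809139 reads assigned to genes, and the values given below are the deposited normalized counts unless FPKM (a count scaled by gene length and sequencing depth) is named. Hif1a, the targeted gene, had 6914, 5424 and 4945 normalized counts in Mock replicates 1 to 3, against 697.3, 3142 and 1928 in HIF-1α-KD replicates 1 to 3. Every HIF-1α-KD library was below every Mock library, but the HIF-1α-KD libraries differed widely among themselves, and the log2 fold change of -1.82 (SE 0.46) had an adjusted p of 0.219 (limma, Benjamini-Hochberg over all genes tested). The 8 markers of colon epithelium summed to 591 normalized counts in Mock replicate 3 and to between 66.0 and 134 in the other 5 libraries, so that Mock replicate 3 stood apart (Krt8 190.9 and Krt19 120.8), with Epcam at 37.5 there and Cdx2 at no more than 2.42 in any library. The number of members called without that library is given below. Fibroblast markers summed to 103778 to 224999 normalized counts in the Mock libraries but to 289091 to 424457 in each HIF-1α-KD library, and markers of pericytes and smooth muscle to 3014 to 6365 and 6772 to 8375, so that neither sum overlapped between groups. Among fibroblast markers only Col1a1 and Col3a1 were separate between groups, while Dcn, Pdgfra and the other 5 overlapped, and among those of pericytes and smooth muscle only Cspg4 and Rgs5 were higher without overlap. Leukocyte markers summed to 3819 to 4000 in Mock, against 2452 to 12727 in HIF-1α-KD, with replicate 3 highest, and endothelial markers to 598 to 714 and, without overlap, 424 to 576, with Cdh5 the one of these 9 genes that was lower in every HIF-1α-KD library than in every Mock library. Of the 28 marker genes tested, 0 passed an adjusted p of 0.05 by limma or edgeR and 1, Col3a1, by DESeq2. Of these 28, 1 was lower and 5 higher at an unadjusted p under 0.05 by limma (5.69% and 7.04% of all tested genes). None was at 0 in every library, and the part of these differences in the results below was not tested.

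Promoter windows of the genes are shown first, as a description of the letters in front of 1 annotated start site per gene. Whether these letters go with a fall was not tested. The RefSeq table (GRCm38.p6) held 6 of the 9 members, and Bnip3l, Ndufa4l2 and Cox4i2 were not among them. The 250 bases before the start annotated in RefSeq, which can differ from the end of the gene span given below, were searched on both strands. The letters sought were ACGTG and GCGTG, which overlap where CACGTG is read on both strands. Capitals mark a match on either strand (CACGT and CACGC are the same letters on the other strand), and all 4 windows printed are 5′ to 3′ on the minus strand, on which these genes lie. They are chr7:138909507-138909756 for Bnip3, chr16:36071562-36071811 for Fam162a, chr9:121857797-121858046 for Higd1a and chr17:56626904-56627153 for Lonp1.
Bnip3: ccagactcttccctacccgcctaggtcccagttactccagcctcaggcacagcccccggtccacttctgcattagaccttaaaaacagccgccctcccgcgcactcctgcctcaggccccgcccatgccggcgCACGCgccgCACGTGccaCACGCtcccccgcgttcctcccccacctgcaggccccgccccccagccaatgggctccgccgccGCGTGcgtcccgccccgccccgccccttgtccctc
Fam162a: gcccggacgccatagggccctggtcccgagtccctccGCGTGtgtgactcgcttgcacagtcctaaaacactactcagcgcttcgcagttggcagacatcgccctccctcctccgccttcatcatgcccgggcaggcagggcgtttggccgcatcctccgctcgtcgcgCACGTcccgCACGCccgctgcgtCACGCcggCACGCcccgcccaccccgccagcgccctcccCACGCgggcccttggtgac
Higd1a: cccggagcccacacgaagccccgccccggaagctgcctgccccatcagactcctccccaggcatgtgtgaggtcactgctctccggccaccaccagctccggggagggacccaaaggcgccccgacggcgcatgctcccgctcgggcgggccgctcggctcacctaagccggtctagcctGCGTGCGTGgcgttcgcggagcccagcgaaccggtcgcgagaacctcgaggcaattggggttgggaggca
Lonp1: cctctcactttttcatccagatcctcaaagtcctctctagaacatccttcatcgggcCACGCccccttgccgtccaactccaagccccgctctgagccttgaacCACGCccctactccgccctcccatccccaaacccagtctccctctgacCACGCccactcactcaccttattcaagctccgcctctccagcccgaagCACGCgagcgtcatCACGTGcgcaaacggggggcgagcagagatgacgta
In the Bnip3 window there were 5 matches, of which 4 lay between 117 and 99 bases before the start and 1 at 35 bases. Fam162a and Lonp1 held 6 each, Higd1a 2 and Pink1 1, and the Fundc1 window held none. The windows of Fundc1 (chrX:17572008-17572257) and Higd1a lie wholly inside the gene spans given below, on the gene side of the outermost start. For these genes the letters before that start were not searched, so the empty Fundc1 window does not describe them. At least 1 match was present in 38.6% of all 32851 promoter windows and in 55.9% of the 11616 windows of tested genes, and 5 or more in 1.01% and 1.90%.

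Bnip3 and Bnip3l, the related mitophagy receptors of the outer membrane, were both lower in HIF-1α-KD cells, whereas Fundc1, the third receptor, was not detectably changed. Bnip3 (ENSMUSG00000078566, chromosome 7, 138890836 to 138909519, minus strand) had 12980, 7365 and 7747 normalized counts in the Mock libraries, against 1088, 1421 and 1753 in the HIF-1α-KD libraries. The groups were far apart, with the highest HIF-1α-KD library below the lowest Mock library, and Mock replicate 1 stood above the other Mock libraries. The mean fell from 9364 ± 3137 to 1421 ± 332.5 (SD, n = 3 each), or to 15.2% of Mock. Limma gave a log2 fold change of -2.70 (SE 0.25, 95% interval -3.27 to -2.12) and an adjusted p of 0.0205 for Bnip3. It had the smallest p of all 12014 genes tested. Less RNA per cell and fewer cells that express a gene cannot be told apart in such bulk libraries, for this and every gene below. The call was lost without Mock replicate 3 (limma adjusted p = 0.0898) or without HIF-1α-KD replicate 2 (0.0589), while the fold change was between -2.86 and -2.44 whichever library was left out. Reads of Bnip3 may be shared with 5 annotated copies elsewhere in the genome at 93.4% to 98.9% identity and with the antisense gene Gm45507, which have no entry in the table.

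Bnip3l (ENSMUSG00000022051, chromosome 14, 66985239 to 67008877, minus strand) showed 7058, 4098 and 4060 normalized counts in Mock, against 1405, 1805 and 1507 in HIF-1α-KD. Again no library of one group reached into the other, and again Mock replicate 1 was the highest. The mean went from 5072 ± 1720 to 1572 ± 207.8 (SD), 31.0% of Mock, with a log2 fold change of -1.65 (SE 0.23, 95% interval -2.16 to -1.13, limma adjusted p = 0.0281). Leaving out any 1 library took the adjusted p to between 0.0509 and 0.0898 and the fold change to between -1.78 and -1.38. A processed copy, Bnip3l-ps, is 99.4% identical and has no entry in the table.

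Fundc1 (ENSMUSG00000025040, chromosome X, 17556564 to 17572325, minus strand), a receptor whose binding to LC3 is known to be controlled by phosphorylation, had 652.5, 375.1 and 369.6 normalized counts in Mock, against 337.0, 418.5 and 339.6 in HIF-1α-KD. The groups overlapped, and only Mock replicate 1 stood apart. Its log2 fold change was -0.31 (SE 0.25, 95% interval -0.88 to 0.27, limma adjusted p = 0.651), an interval that leaves room for a moderate fall.

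**Figure D1:**
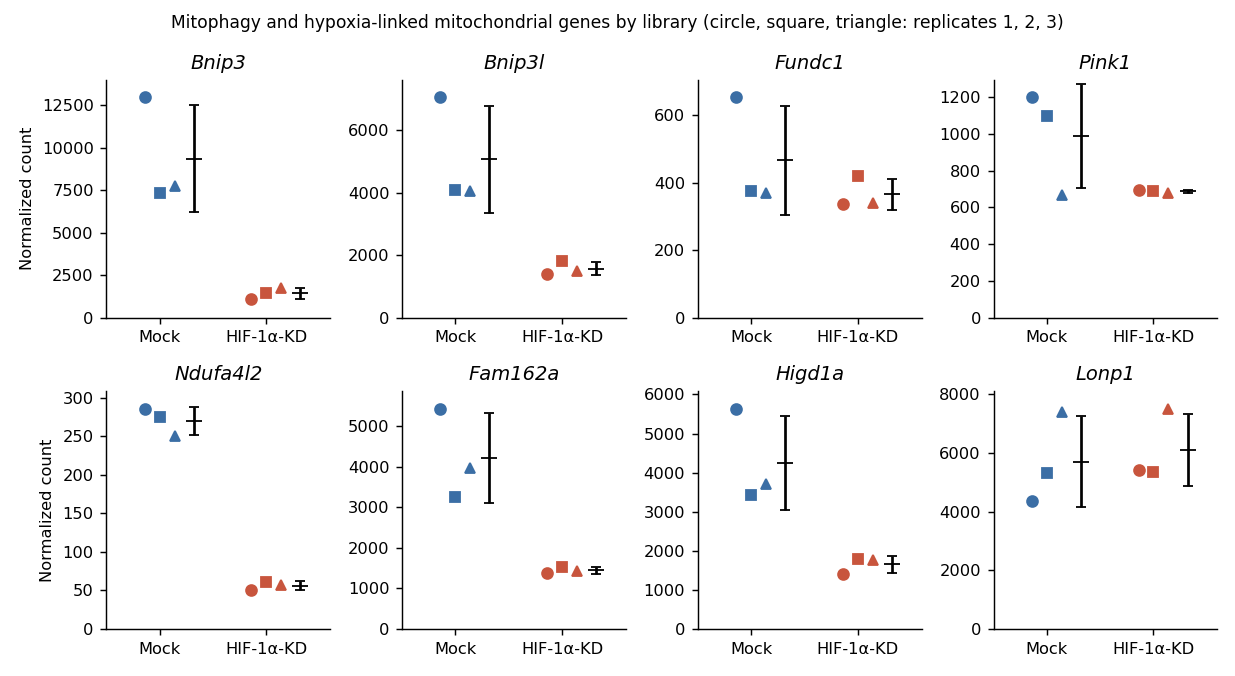
Deposited normalized counts (vertical axis, linear, from 0) of the 8 tested genes in the 3 Mock and 3 HIF-1α-KD libraries, with circles, squares and triangles for replicates 1, 2 and 3 and bars for mean ± SD. Bnip3, Bnip3l, Fam162a, Ndufa4l2 and Higd1a separate fully between groups, while Fundc1, Pink1 and Lonp1 overlap.

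The levels of the 3 receptors relative to each other also differed between the 2 groups. On the FPKM scale, Bnip3 had 703, 426 and 421.2 in Mock, against 60.99, 82.93 and 102.6 in HIF-1α-KD, and the sum of the 3 receptors was 691.5 ± 217 in Mock but 149 ± 25.8 in HIF-1α-KD (SD). Bnip3 made up 74.7%, 74.2% and 75.4% of that sum in the Mock libraries, against 51.2%, 51.8% and 61.5% in the HIF-1α-KD libraries. The share was thus nearly the same in each Mock library, even though the counts of Mock replicate 1 were far above the others. Bnip3l went from 22.4% ± 0.500 to 34.1% ± 4.17 of the sum and Fundc1 from 2.84% ± 0.0764 to 12.2%, 11.7% and 9.14% in HIF-1α-KD replicates 1 to 3, as shares and not as levels. None of the shares overlapped between groups, and each difference had p = 0.1 by the two-sided exact permutation test, the smallest that 3 against 3 libraries allow. The shares of a library add up to its whole, so a lower share of Bnip3 raises the other shares. These tests are thus not separate results and restate the changes of the single genes.

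**Figure D2:**
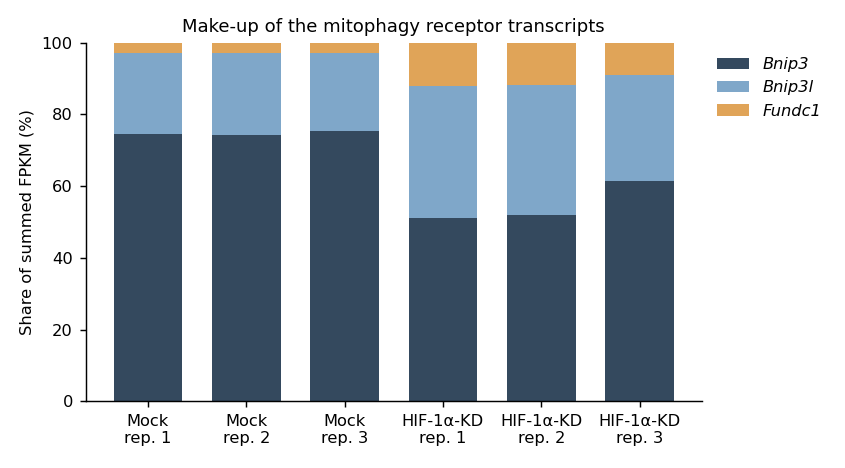
Share in percent (vertical axis) of Bnip3, Bnip3l and Fundc1 in the summed FPKM of the 3 mitophagy receptors, as a stacked bar for each library. Bnip3 takes 74.2% to 75.4% in the Mock libraries, against 51.2% to 61.5% in the HIF-1α-KD libraries, where HIF-1α-KD replicate 3 has the highest share.

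Within a library, Bnip3 exceeded Bnip3l by FPKM ratios of 3.32, 3.24 and 3.44 in Mock, against ratios of 1.40, 1.42 and 2.10 in HIF-1α-KD. The ratio did not depend on the scaling between libraries and was lower in every HIF-1α-KD library, with HIF-1α-KD replicate 3 closest to Mock (log2 difference -1.05, exact permutation p = 0.1, also 0.1 after adjustment over 3 ratios). In HIF-1α-KD, Hif1a itself was lowest in replicate 1 and highest in replicate 2, whereas Bnip3 was lowest in replicate 1 and highest in replicate 3.

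Pink1 (ENSMUSG00000028756, chromosome 4, 138313409 to 138326307, minus strand), the kinase that starts the Parkin pathway, had 1198, 1099 and 668.0 normalized counts in Mock, against 694.9, 685.9 and 676.9 in HIF-1α-KD. The HIF-1α-KD libraries were almost equal, and Mock replicate 3 lay below all of them, so that the groups overlapped. The log2 fold change was -0.48 (SE 0.23, 95% interval -0.996 to 0.03, limma adjusted p = 0.419). Without Mock replicate 3 it was -0.74, past an unadjusted p of 0.05 and a fold of 1.5 but not past an adjusted p of 0.05.

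Of the hypoxia-linked mitochondrial proteins, Fam162a, Ndufa4l2 and Higd1a fell. Fam162a (ENSMUSG00000003955, chromosome 16, 36043761 to 36071594, minus strand), also known as HGTD-P, is a mitochondrial protein that has been linked to hypoxic cell death. It had 5435, 3259 and 3974 normalized counts in Mock, against 1379, 1536 and 1421 in HIF-1α-KD. The HIF-1α-KD libraries lay close together and far under the lowest Mock library. The mean fell from 4223 ± 1109 to 1445 ± 81.3 (SD), 34.2% of Mock (log2 fold change -1.52, SE 0.19, 95% interval -1.95 to -1.08, limma adjusted p = 0.0242). The adjusted p remained under 0.05 without Mock replicate 2 or HIF-1α-KD replicate 1 and was 0.0509 without Mock replicate 1, 0.0898 without Mock replicate 3, 0.0786 without HIF-1α-KD replicate 2 and 0.0609 without HIF-1α-KD replicate 3. Exons of Fam162a overlap those of Wdr5b on the opposite strand by 168 bases, and Wdr5b had 7 to 23 reads a library.

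Ndufa4l2 (ENSMUSG00000040280, chromosome 10, 127514967 to 127517154, plus strand) is a paralog of the respiratory chain subunit Ndufa4 that is known to restrain oxygen use under hypoxia. Its normalized counts were 285.6, 274.7 and 250 in Mock, against 49.87, 61.15 and 56.60 in HIF-1α-KD. It was the least variable of the fallen genes among the Mock libraries, and Mock replicate 1 was only slightly above the others. The mean fell from 270 ± 18.2 to 55.9 ± 5.68 (SD), 20.7% of Mock (log2 fold change -2.26, SE 0.23, 95% interval -2.78 to -1.74, limma adjusted p = 0.0205). The adjusted p was 0.0655, 0.0741 and 0.0898 without Mock replicates 1, 2 and 3 and 0.0589 without HIF-1α-KD replicate 2, and it was under 0.05 without either other HIF-1α-KD library. Its exons overlap those of Shmt2 on the opposite strand by 32 bases, and Shmt2 had 4770 to 8892 reads a library. Ndufa4 itself had a log2 fold change of 0.08 (adjusted p = 0.851), and the FPKM ratio of Ndufa4l2 to Ndufa4 went from 0.0339, 0.0365 and 0.0334 in Mock to 0.00685, 0.00663 and 0.00682 in HIF-1α-KD. The 2 sets of ratios did not overlap and were each tightly grouped (log2 difference -2.35, exact permutation p = 0.1, adjusted 0.1).

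Higd1a (ENSMUSG00000038412, chromosome 9, 121848563 to 121858362, minus strand), a hypoxia-induced protein of the inner membrane that associates with respiratory chain complexes, had 5636, 3430 and 3704 normalized counts in Mock, against 1399, 1791 and 1771 in HIF-1α-KD. All HIF-1α-KD libraries were below all Mock libraries. The mean fell from 4257 ± 1202 to 1654 ± 220.8 (SD), 38.8% of Mock (log2 fold change -1.34, SE 0.21, 95% interval -1.81 to -0.86, limma adjusted p = 0.0402). With any 1 library left out the adjusted p was 0.0776 to 0.118, and scaling by library size alone gave 0.0569, so this call was the weakest of the 5. The paralog Higd2a had a log2 fold change of -0.42 (adjusted p = 0.336), and the FPKM ratio of Higd1a to Higd2a was 1.66, 1.05 and 0.874 in Mock, against 0.510, 0.687 and 0.651 in HIF-1α-KD. This ratio was lower in HIF-1α-KD without overlap (log2 difference -0.91, exact permutation p = 0.1, adjusted 0.1), with Mock replicate 1 well above the other Mock libraries. Copies of Higd1a at 91.5% (Gm14925) and 99.3% (Gm9790) identity and the antisense gene Gm47112 have no entry in the table.

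Lonp1 (ENSMUSG00000041168, chromosome 17, 56614297 to 56626887, minus strand), the matrix protease known to degrade the COX4-1 subunit under hypoxia, had 4367, 5330 and 7406 normalized counts in Mock, against 5425, 5367 and 7514 in HIF-1α-KD. The groups overlapped almost completely, and Mock replicate 1 was here the lowest library. The log2 fold change was 0.11 (SE 0.22, 95% interval -0.39 to 0.62, limma adjusted p = 0.856), and it changed sign to -0.060 without Mock replicate 1 and to -0.045 without HIF-1α-KD replicate 3.

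Cox4i2 (ENSMUSG00000009876, chromosome 2, 152754173 to 152765037, plus strand), the hypoxic isoform of cytochrome c oxidase subunit 4, was not detectable at this depth. The recovered reads were 0, 1 and 0 in Mock, against 1, 0 and 1 in HIF-1α-KD, 3 reads in all, so that no fold change was computed. A count of 0 allows up to 3 reads, which corresponds to an FPKM of 0.133 to 0.207 depending on the library and covers counting error only. Its constitutive partner Cox4i1 had an FPKM of 948 ± 73.7 in Mock, against 844 ± 117 in HIF-1α-KD (SD), with overlapping libraries and a log2 fold change of -0.23 (limma adjusted p = 0.589).

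**Figure D3:**
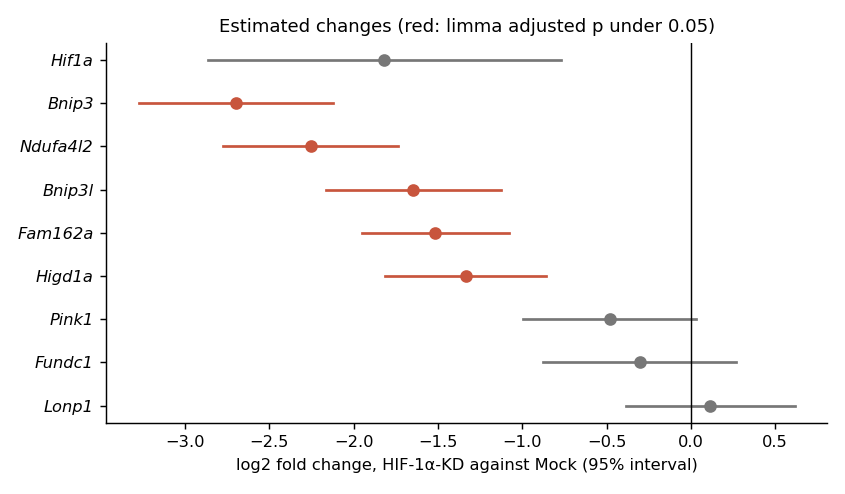
Log2 fold change (horizontal axis, HIF-1α-KD against Mock) of Hif1a and the 8 tested genes, with the 95% interval from limma as a bar. The intervals of Bnip3, Ndufa4l2, Bnip3l, Fam162a and Higd1a lie below 0, and those of Pink1, Fundc1 and Lonp1 include 0.

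In all, 5 of the 8 tested members fell at an adjusted p under 0.05 and 0 rose, where 0.383% of all tested genes fell and 0.00832% rose by that rule (limma). The same 5 fell at an unadjusted p under 0.05 with a fold of 1.5 or more, against 3.46% of all genes that fell and 4.02% that rose. The same 5 also had every HIF-1α-KD library below every Mock library, against 8.75% of all genes, with 10.4% the other way round. Their median log2 fold change, taken over all 8, was -1.43, beside 0.02 over all genes tested. The edgeR quasi-likelihood test and DESeq2 on the recovered reads gave the same 5 genes (background 0.391% and 1.56%). Leaving out 1 library left fewer calls at the adjusted p, with 1, 2 and 0 members without Mock replicates 1, 2 and 3 and 3, 0 and 2 without HIF-1α-KD replicates 1, 2 and 3, although the 5 genes still had an unadjusted p under 0.05 by limma each time. Over all 12014 tested genes, the calls in either direction were 2, 11 and 0 and 37, 0 and 9 in the same order. Limma without a mean-variance trend called 1 of the 5 members, Ndufa4l2, which was the only gene called in that setting. The members were chosen with earlier results of these data known.

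Mock replicate 1 stood apart from the other Mock libraries in most of these genes. It was the highest of all 6 libraries in 7 of the 8 genes, against 24.4% of all tested genes, and its normalized count was 1.72 times the mean of the other Mock libraries for Bnip3, 1.73 times for Bnip3l, 1.503 times for Fam162a and 1.58 times for Higd1a. Fundc1, which did not pass the test, had the highest such ratio, at 1.75, whereas Ndufa4l2 had 1.09 and Lonp1 0.686. Over all tested genes the median of this ratio was 0.992. HIF-1α-KD replicate 1 was the lowest library in 6 of the 8 genes, against 22.0% of all tested genes.

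The order of levels, compared per length as FPKM, was different in the 2 groups. In Mock it ran from Bnip3 (421 to 703) over Fam162a (214 to 334), Bnip3l (122 to 212), Higd1a (76.4 to 118), Lonp1 (57.5 to 98.0), Pink1 (14.1 to 25.2) and Fundc1 (15.4 to 27.1) to Ndufa4l2 (10.2 to 11.9). Higd1a and Lonp1 overlapped in that order, as did Pink1 and Fundc1, and the other neighbours did not. In HIF-1α-KD, Fam162a (87.7 to 102), Lonp1 (74.0 to 107) and Bnip3 (61.0 to 103) overlapped at the top, followed by Bnip3l (43.6 to 58.3), Higd1a (30.2 to 40.3), Fundc1 (14.5 to 18.7), Pink1 (15.2 to 15.6) and Ndufa4l2 (2.10 to 2.68), of which Fundc1 and Pink1 overlapped. Bnip3 thus moved from a level that 1.73% of tested genes exceeded to one that 12.6% exceeded. Lonp1 moved up in the order while its own level did not detectably change.

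Genes whose profile over the 6 libraries was most like that of a member were named by the smallest root mean square difference of centred log2 values, as a description with no test. Fam162a was closest to Pgk1, a glycolytic enzyme (0.0623), followed by Prelid2 (0.125) and Higd1a (0.137). The nearest to Bnip3l were Fam162a (0.141), Prelid2 (0.163) and Ccng2 (0.167), and to Higd1a they were Ak4, a mitochondrial adenylate kinase (0.104), Mgarp (0.108) and Pgm2 (0.119). Bnip3 had no gene as near, with Epm2a at 0.347, Ndufa4l2 at 0.353 and Ero1l at 0.382, and Ndufa4l2 had Selenbp1 at 0.176, Ier3 at 0.280 and Ero1l at 0.288. Fam162a was thus among the 3 nearest genes of Bnip3l, Higd1a among those of Fam162a and Ndufa4l2 among those of Bnip3, and in none of these pairs did the reverse hold. The members that did not pass the test were nearest to other genes: Pink1 to Elac1 (0.0784), Usp22 (0.0882) and Acadm (0.0952), Fundc1 to Lypla1 (0.0497), Rdh14 (0.0565) and Ap3s1 (0.0685), and Lonp1 to Qtrt1 (0.0678), Ybx3 (0.0728) and Ppp1r12c (0.0787).

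The machinery in which these genes work was compared by lists. In the union of 8 lists of mitochondrial and autophagy genes without the members, 0 of 127 tested genes passed an adjusted p of 0.05 by limma, edgeR or DESeq2, with a median log2 fold change of -0.01. By limma, 5 were lower and 6 higher at an unadjusted p under 0.05, where 5.69% and 7.04% of all tested genes were. The PINK1-Parkin pathway and other mitophagy receptors (22 of 24 tested, Park2 and Calcoco2 not tested) had a median of 0.01, with Gbas at -0.50 (adjusted p = 0.367), the LC3 adaptor Optn at 0.52 (0.422) and the ubiquitin ligase March5 at -0.17 (0.671). For core autophagy genes (32 tested) it was -0.12, with Atg16l1 at 0.44 (adjusted p = 0.303), Pik3r4 at 0.39 (0.381) and the cargo receptor Sqstm1 at -0.39 (0.384). None of these values passed the limma test.

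Fission and fusion genes (17 of 20 tested) had a median log2 fold change of 0.01, with Mief1 at 0.33, Fam73b at 0.44 and Mtfr2 at -0.58. Proteases and chaperones (20 tested), the list nearest in function to Lonp1, had 0.06, with the chaperonin Hspd1 at 0.38 (limma adjusted p = 0.386), Immp2l at -0.43 and Clpx at -0.28. The 5 tested paralogs of the members had -0.23, among them Fundc2 at -0.29 (adjusted p = 0.609) and Lonp2 at 0.01 (0.977), while Higd1b, Higd1c and Fam162b were not tested.

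For subunits of cytochrome c oxidase (11 of 14 tested) the median log2 fold change was -0.10, with Cox7a2l at -0.57 (limma adjusted p = 0.261), Cox7c at -0.24 (0.547) and Cox6a2 at 0.78 (0.381). Genes of mitochondrial content and biogenesis (18 of 19 tested, Ppargc1a not tested) had -0.07, with the outer membrane channel Vdac1 at -0.48 (0.276), Polg at 0.41 and Tomm20 at -0.29. Of the 13 proteins encoded by mitochondrial DNA, 7 were tested, with a median of 0.32 and values of 0.63 for mt-Cytb (adjusted p = 0.371), 0.62 for mt-Nd1 and 0.51 for mt-Nd4. The genes mt-Nd3, mt-Nd4l, mt-Co2, mt-Co3, mt-Atp6 and mt-Atp8 did not pass the filter on low counts and are not in this median. These lists thus held no gene that passed the adjusted test, although the 7 tested mitochondrial transcripts had the highest median.

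Known HIF targets outside mitochondria were lower as well. This list, like the others, was chosen with earlier results of these data known. All 15 tested had a negative log2 fold change, with a median of -1.55, and 8 fell at an adjusted p under 0.05 by limma (0.383% of all tested genes) and 13 at an unadjusted p under 0.05 with a fold of 1.5 or more (3.46%). Ero1l, an oxidase of the endoplasmic reticulum, had -1.98 (adjusted p = 0.0242), the glycolytic enzyme Pgk1 -1.55 (0.0245) and Ndrg1 -1.59 (0.0245). Of the 15, 0 were called without Mock replicate 3 or HIF-1α-KD replicate 2, 1 without Mock replicate 1 or HIF-1α-KD replicate 3, 3 without Mock replicate 2 and 7 without HIF-1α-KD replicate 1. The calls over all tested genes in these settings are given above. In the list of mTORC1, energy stress and TFEB regulators (14 of 15 tested, Rragd not tested) 0 passed an adjusted p of 0.05 by limma and by edgeR and 1 by DESeq2, Ddit4, a HIF target that restrains mTORC1 (-0.89, limma adjusted p = 0.109). Its list had a median of -0.00, with Sesn2 at 0.47 and Rptor at 0.38.

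**Figure D4:**
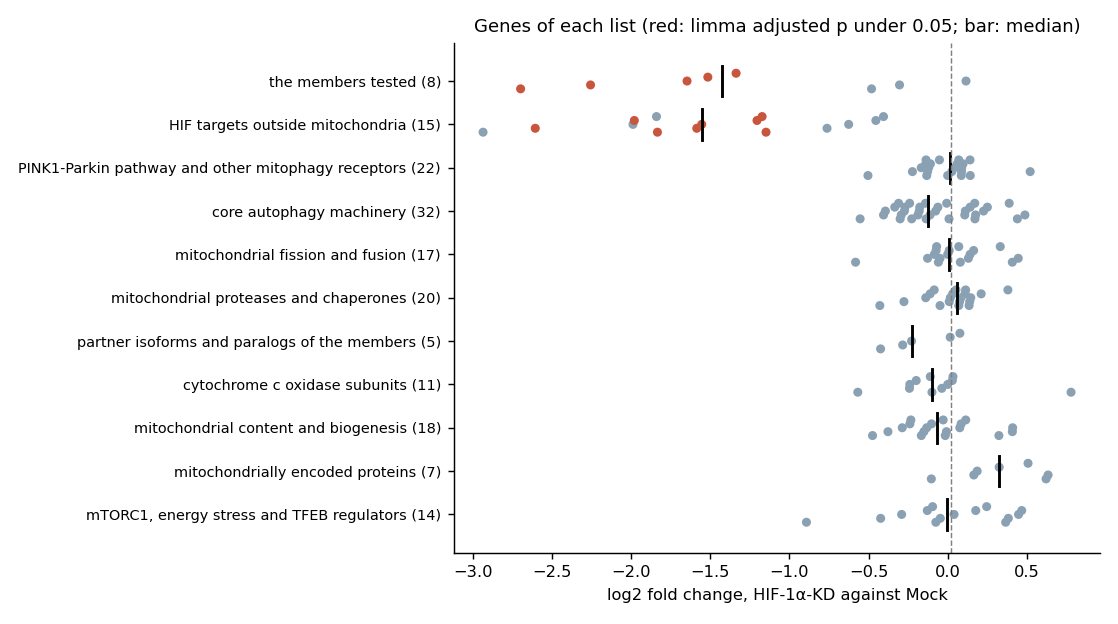
Log2 fold change (HIF-1α-KD against Mock) of every tested gene in each gene list, with a bar at the list's median and a dashed line at 0.02, the median over all genes tested. The 15 HIF targets outside mitochondria lie below 0, while the medians of the autophagy and mitochondrial lists lie between -0.23 and 0.32, the highest being that of the mitochondrially encoded genes.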

How the data were processed

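Poly(A) RNA libraries of sorted MC-38 cells (3 Mock, 3 HIF-1α-KD) were sequenced single-end. The authors aligned reads with STAR and counted them with featureCounts; the labels name GRCm38 and the methods GRCh38, while the gene identifiers are mouse. The deposited table gives, per gene and library, a normalized count, which is a signal scaled between libraries by the authors, and FPKM. The kit was stranded, and the aligner reported reads with several alignments up to a limit; whether those reads were counted, and with which strand setting, is not given in the sources used here. The authors' own columns of log2 ratio, p-value and FDR were not used; the methods name DESeq2 for them and the submitters' processing notes list edgeR.

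Whole reads were recovered from the normalized counts (100% of values of up to 300 reads were whole within 0.1 reads). Genes were filtered with filterByExpr (minimum count 10), and log2(normalized count + 1) was fitted with limma 3.58.1 (mean-variance trend, two-sided, Benjamini-Hochberg over 12014 genes) in R 4.3.3. This scale understates changes of low genes. Alternatives were edgeR 4.0.16 and DESeq2 1.42.0 on recovered reads, other scalings, pseudocounts and filters, a replicate block and leaving out each library. Copies were searched with blastn 2.17.0 (at least 90% identity over 200 aligned bases).

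Named were the 9 members, Hif1a, up to 3 genes with the smallest p in each list, the members' paralogs and the 3 nearest profiles per member. The members and lists were chosen with earlier results of these data known.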

Additional observations from a re-analysis of the deposited data

How the results depend on the processing

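The 5 members called lower at an adjusted p under 0.05 by limma were also 5 with edgeR, DESeq2, TMM scaling, no filter on low counts and pseudocounts of 0.1 and 10, and 4 with scaling by library size alone. The count was 1 for limma without a trend, and 0 to 3 with 1 library left out. Over all tested genes it was 1 without a trend and 0 to 37 with 1 library left out. With the replicate number as a block, 0 members and 0 of all tested genes were called (adjusted p = 0.0514 for Bnip3 to 0.138 for Higd1a, all 5 with an unadjusted p under 0.05 by limma). Same-numbered libraries did not deviate together (correlations -0.139, -0.123 and 0.0228), and none correlated best with its own number, so the numbers were not taken to pair them. The count at an unadjusted p under 0.05 and a fold of 1.5 was 5 or, without Mock replicate 3, 6 with Pink1 added. With 1 library left out, the log2 fold change of Lonp1 was between -0.060 (without Mock replicate 1) and 0.32, and it was also below 0 without HIF-1α-KD replicate 3 (-0.045). For Hif1a the log2 fold change was between -2.30 and -1.21 with 1 library left out. Of the HIF targets outside mitochondria, 0 of 15 were called without a trend or with the block. The cause of these changes was not tested. With 3 libraries a group, exact permutation tests cannot go below 0.1, and for Cox4i2 3 reads in all allowed no comparison.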
